A study of Homo sapiens with 14 samples.

Results

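The plasminogen activation system was followed through 5 genes across the series: the activators *PLAU* and *PLAT*, the receptor *PLAUR*, and the inhibitors *SERPINE2* and *SERPINB2*. They were picked out by gene symbol, with earlier results of these data known, and make up 5 of the 60683 genes counted in each library. RNA from human cancer cell lines was sequenced in 14 libraries, 2 for each of 7 groups. The study treated the cells with inhibitors of the kinases that drive the cell cycle, to examine the growth arrest known as senescence.

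A549, a lung cancer line, was left untreated, treated for 10 days with 2 µM palbociclib, for 10 days with 0.5 µM indisulam, for 10 days with both drugs at these doses, or for 7 days with 0.5 µM PF-06873600. SUM159, a breast cancer line, was left untreated or treated for 7 days with 0.5 µM PF-06873600. Palbociclib inhibits CDK4 and CDK6, indisulam is an aryl sulfonamide that triggers degradation of the splicing factor RBM39, and PF-06873600 inhibits CDK2, CDK4 and CDK6. SUM159 medium held insulin and hydrocortisone and A549 medium did not, so line and medium cannot be told apart. The labels do not say when the untreated cells were collected, and in A549 1 untreated group is the base for treatments of 7 and of 10 days, so that drug and time in culture cannot be told apart in any fold over untreated cells. The 2 libraries of a group were technical duplicates, so the p-values below measure only the spread between such duplicates.

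Plasminogen is an inactive protease of blood plasma, made mainly by the liver. Urokinase, encoded by *PLAU*, and tissue-type plasminogen activator, encoded by *PLAT*, cut it into plasmin, which digests fibrin and other matrix proteins. The urokinase receptor, encoded by *PLAUR*, holds urokinase at the cell surface through a lipid anchor. Serpins trap the activators in inactive complexes: protease nexin 1, encoded by *SERPINE2*, is a secreted inhibitor that also acts on thrombin, and *SERPINB2* encodes plasminogen activator inhibitor 2, much of which stays inside the cell. Urokinase, its receptor and serpins are among the proteins that senescent cells are known to secrete or display.

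Totals ran from 13060374 to 21149256 counts per library, so a count of 3, taken as the floor of detection, was worth 0.142 to 0.230 CPM, the count of a gene scaled to a library of 1000000 counts. Intervals and floors cover counting error and the spread of duplicates only. Each fit shared its estimate of spread over groups, although duplicates differed unequally. Their squared scatter relative to counting error was 10.5 in untreated A549, 9.99 in untreated SUM159 and 1.66 to 5.48 in treated groups. The labelled lines were checked against their markers: 7 epithelial and metabolic genes of A549 (keratins, *EPCAM*, *CDH1*, *AKR1C1*, *AKR1B10*) summed to between 13524 and 18929 CPM in A549 and to between 1263 and 2724 CPM in SUM159. *KRT7* went the other way between the untreated lines, with a mean of 1877 CPM in SUM159 and 982 CPM in A549, and made up most of the SUM159 sum. The mesenchymal list *VIM*, *CD44*, *AXL* and *CAV1* summed to between 6532 and 7476 CPM in SUM159 and went in A549 from at most 1593 CPM untreated to at least 3839 CPM with both drugs, with 4 of 4 genes above the floor in every group. A list of 3 fibroblast genes went from between 1.90 and 2.13 CPM in untreated A549 to between 74.1 and 74.2 CPM with both drugs, nearly all of it *COL1A1*, with *COL1A2* at 0 or 1 count, and from between 1631 and 1731 CPM to between 3256 and 3385 CPM in treated SUM159. Leukocyte genes summed to between 6.80 and 23.9 CPM, with the T cell gene *CD3E* at 0 in all 14 libraries, and endothelial genes to between 0.536 and 29.0 CPM, both highest in treated SUM159. Their part in the results below was not tested.

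*PLAU* (ENSG00000122861) lies on chromosome 10 at 73909177 to 73917496 on the plus strand of GRCh38 and *PLAUR* (ENSG00000011422) on chromosome 19 at 43646095 to 43670547 on the minus strand. *SERPINE2* (ENSG00000135919) lies on chromosome 2 at 223975045 to 224039318 on the minus strand and *SERPINB2* (ENSG00000197632) on chromosome 18 at 63871692 to 63903888 on the plus strand, within a cluster of related serpins. These coordinates are from GENCODE 44. The exons of *PLAU* share 915 bases with the antisense transcript C10orf55, which held 5 to 27 counts per library, and the library kit marks strand while the strand setting of the counting is not given in the sources used here. *SERPINB2* overlaps a gene model on its own strand, ENSG00000289724, over 547 exonic bases, so its counts carry that uncertainty.

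Promoter sequences from RefSeq (GRCh38.p14) were matched for 4 of the 5 genes, and the 250 bases before each start site were searched on both strands for 6 motifs. They are shown because 2 of the 4, the receptor and the inhibitor *SERPINB2*, had a match to the AP-1 motif, TGANTCA, and the other 2 had GC boxes. Capitals mark the matches, and each line is read 5′ to 3′ on the strand of its gene.
SERPINB2, chr18:63887455-63887704, plus strand: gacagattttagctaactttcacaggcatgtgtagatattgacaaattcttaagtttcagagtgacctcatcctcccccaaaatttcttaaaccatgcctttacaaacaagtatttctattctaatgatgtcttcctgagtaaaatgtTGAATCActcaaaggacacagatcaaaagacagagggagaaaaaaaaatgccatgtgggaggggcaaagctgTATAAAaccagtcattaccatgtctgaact
PLAUR, chr19:43670338-43670367, minus strand: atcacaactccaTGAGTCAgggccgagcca
PLAU, chr10:73911072-73911101, plus strand: gagagggagGGGCGGcgccgGGGCGGgccc
SERPINE2, chr2:224038811-224038830, minus strand: ggcggggCCGCCCcggggtg
In *SERPINB2* the whole window is shown, which holds no annotated exon: it had an AP-1 match 102 to 96 bases before the start and the TATA box letters TATAAA 30 to 25 bases before it, with a GC content of 37.2%. In *PLAUR* the AP-1 match lay 186 to 180 bases before the start, in a window of 63.2% GC that exons of other annotated *PLAUR* transcripts cover. Exons of other *PLAU* transcripts and of C10orf55 cover the *PLAU* window, and *SERPINE2* exons cover 164 bases of its own. The *PLAU* window held 3 matches to the GC box letters GGGCGG, of which 2 are shown, and that of *SERPINE2* held 2, of which 1 is shown on its reverse strand, at GC contents of 68.8% and 75.2%. The *SERPINE2* start used by RefSeq lay 646 bases from that of the canonical transcript. Among 35116 RefSeq promoter windows of this length, 6.57% held the AP-1 letters, 10.7% the TATA letters and 42.6% the GC box. The cAMP response element TGACGTCA, the CCAAT letters and the NF-kB motif, found in 1.65%, 32.0% and 6.88% of windows, had no match in these 4 windows. A match is a description of letters and says nothing of binding.

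**Figure D1:**
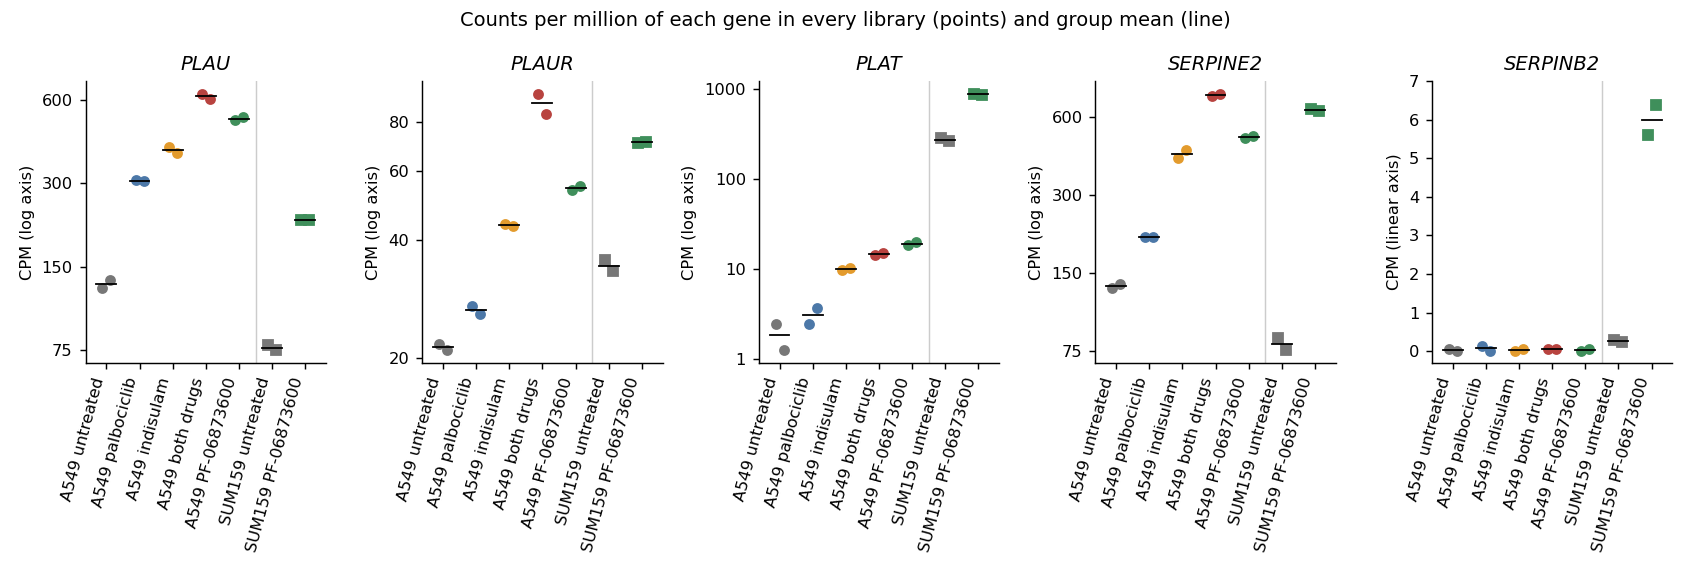
Level of each gene in CPM (vertical axis, logarithmic except for *SERPINB2*) in every library, by group along the horizontal axis; points are the 2 libraries of a group, circles for A549 and squares for SUM159, and the line is their mean. *PLAU*, *PLAUR* and *SERPINE2* were highest with both drugs in A549, *PLAT* was highest in treated SUM159, and *SERPINB2* stood above 1 CPM only in treated SUM159.

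The first comparison asked what each single drug did in A549. Both drugs came with more *PLAU* and *SERPINE2* RNA, and indisulam also with more *PLAUR* and *PLAT* RNA, while under palbociclib the receptor moved little and *PLAT* did not pass the test. In bulk RNA, a larger share of cells that express a gene and more RNA per cell cannot be told apart. *PLAU* read 126 and 134 CPM in the untreated libraries, 308 and 305 CPM with palbociclib, and 406 and 385 CPM with indisulam. The 3 groups did not overlap, and the share of all genes so separated was not computed. *PLAU* was 2.36-fold higher with palbociclib (log2 1.24, SE 0.06, adjusted p = 1.42e-08) and 3.05-fold higher with indisulam (log2 1.61, SE 0.06, adjusted p = 5.74e-11), by edgeR's quasi-likelihood test with Benjamini-Hochberg adjustment over 15780 genes. Under palbociclib only 2.31% of all genes tested had a larger log2 fold change than *PLAU*.

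*PLAT* (ENSG00000104368, chromosome 8, 42174718 to 42207709, minus strand), the other activator, was scarce in A549. Untreated libraries held 36 and 19 counts of it (2.45 and 1.27 CPM), those with palbociclib 33 and 61 counts (2.45 and 3.72 CPM), and those with indisulam 142 and 156 counts (9.81 and 10.3 CPM). The lower palbociclib library thus stood level with the higher untreated one, whereas both indisulam libraries lay above all 4 others. The log2 fold change was 0.76 with palbociclib (95% interval 0.16 to 1.35, adjusted p = 0.0821) and 2.44 with indisulam (SE 0.22, adjusted p = 7.93e-07). Leaving out the first untreated library gave 1.30 for palbociclib (adjusted p = 0.00729) and leaving out the first palbociclib library gave 1.00 (adjusted p = 0.0445), so that the call rested on single libraries with few counts.

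The receptor *PLAUR* measured 21.7 and 20.9 CPM untreated, 27.2 and 25.9 CPM with palbociclib, and 43.9 and 43.5 CPM with indisulam. No library of 1 group fell within the range of another, and the share of all genes of which this holds was not computed. It was 1.24-fold higher with palbociclib (log2 0.32, SE 0.09, adjusted p = 0.0227), a call that was lost when only the 4 libraries compared were fitted (adjusted p = 0.118), with DESeq2 (adjusted p = 0.0597), and on leaving out the second untreated library (adjusted p = 0.0626) or the first or the second palbociclib library (adjusted p = 0.131 and 0.0731). With indisulam it was 2.05-fold higher (log2 1.04, SE 0.08, adjusted p = 1.68e-07).

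*SERPINE2*, the secreted inhibitor, read 132 and 136 CPM in untreated A549, 207 and 206 CPM with palbociclib, and 417 and 447 CPM with indisulam. It rose 1.54-fold with palbociclib (log2 0.63, SE 0.06, adjusted p = 4.64e-06) and 3.22-fold with indisulam (log2 1.69, SE 0.06, adjusted p = 3.22e-11). *SERPINB2* held at most 2 counts in each of the 10 A549 libraries, at or under the floor, and was not tested in this line. Of the 4 genes tested, 3 were called higher with palbociclib and 4 with indisulam, where 8.30% and 28.0% of all genes tested were called higher. For indisulam the share of higher among all called genes was 61.6% with scaling to total counts and 50.4% with TMM factors, a trimmed-mean scaling.

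The combination of palbociclib and indisulam gave the highest level of *PLAU*, *PLAUR* and *SERPINE2* of all 7 groups. *PLAU* reached 631 and 607 CPM, *PLAUR* 94.7 and 84.3 CPM, and *SERPINE2* 721 and 736 CPM, each above every library of the other 6 groups. *PLAT*, at 204 and 233 counts (14.5 and 15.0 CPM), stood above the single drugs and below PF-06873600. Over untreated cells the log2 fold changes were 2.25 for *PLAU* (SE 0.06, adjusted p = 2.81e-13), 2.99 for *PLAT* (SE 0.21, adjusted p = 1.46e-08), 2.07 for *PLAUR* (SE 0.08, adjusted p = 1.51e-11) and 2.44 for *SERPINE2* (SE 0.06, adjusted p = 1.12e-13), that is, between 4.20-fold and 7.93-fold. All 4 genes tested were called higher, against 35.1% of all genes.

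Set against each single drug, the combination was higher for all 4 genes. Over palbociclib alone, where 33.5% of all genes were called higher, the log2 difference was 1.01 for *PLAU* (adjusted p = 1.15e-09), 2.23 for *PLAT* (1.55e-07), 1.75 for *PLAUR* (9.91e-11) and 1.82 for *SERPINE2* (2.49e-12). Over indisulam alone, where 22.0% of all genes were called higher, it was 0.65 for *PLAU* (adjusted p = 3.00e-07), 0.55 for *PLAT* (0.0110), 1.03 for *PLAUR* (3.99e-08) and 0.75 for *SERPINE2* (4.61e-08). The *PLAT* call over indisulam was lost without the first indisulam library (log2 0.52, adjusted p = 0.0625) or the second combination library (log2 0.52, adjusted p = 0.0748). These comparisons share libraries.

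Whether the drugs together did more or less than the sum of their single log2 changes was tested with an interaction term. Adding log2 changes multiplies folds, and on this scale the term differed in sign between urokinase and its receptor. For *PLAU* the single log2 changes added to 2.85 and the measured change was 2.25, an interaction of −0.59 (SE 0.08, adjusted p = 7.59e-05). For *PLAUR* they added to 1.35 and the measured change was 2.07, an interaction of 0.72 (SE 0.11, adjusted p = 0.000296). On this scale the measured change of the receptor thus exceeded the sum, at 4.20-fold against a product of single folds of 2.55. That of *PLAU* fell short of it, at 4.77-fold against 7.19-fold. A sum of changes in CPM was not tested. Mean *PLAU* was 130 CPM untreated, 306 with palbociclib, 396 with indisulam and 619 with both drugs. Mean *PLAUR* was 21.3, 26.5, 43.7 and 89.5 CPM in that order. In mean CPM both genes thus stood above the sum of their single rises, so the signs differed on the log2 scale only. *SERPINE2* had an interaction of 0.13 (95% interval −0.04 to 0.29, adjusted p = 0.269) and *PLAT* one of −0.21 (95% interval −0.89 to 0.48, adjusted p = 0.691), and for *PLAT* the sign turned without the second untreated library (0.19) or the second palbociclib library (0.15). In this test 10.7% of all genes were called above and 14.5% below the sum.

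**Figure D2:**
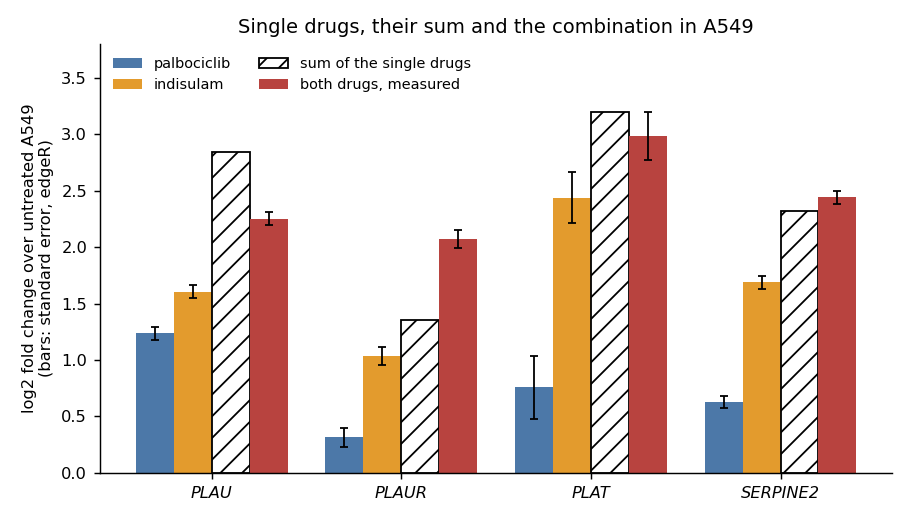
Log2 fold change over untreated A549 (vertical axis) for palbociclib, indisulam, the sum of both and the measured combination, for the 4 genes tested; error bars are standard errors from edgeR. The measured bar lies below the sum for *PLAU* (2.25 against 2.85) and above it for *PLAUR* (2.07 against 1.35).

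PF-06873600 in A549 was likewise followed by higher levels of both activators, the receptor and *SERPINE2*. The treated libraries read 507 and 519 CPM for *PLAU*, 18.6 and 19.8 CPM for *PLAT*, 53.7 and 55.1 CPM for *PLAUR*, and 497 and 505 CPM for *SERPINE2*, all above the untreated range. *PLAT* had the largest fold of the 4, at 10.3-fold (log2 3.37, SE 0.21, adjusted p = 5.09e-09), from a base of 36 and 19 counts to 243 and 320 counts, and 1.61% of all genes had a larger log2 change. *PLAU* was 3.95-fold higher (log2 1.98, SE 0.06, adjusted p = 2.85e-12), *SERPINE2* 3.74-fold (log2 1.90, SE 0.06, adjusted p = 3.32e-12) and *PLAUR* 2.55-fold (log2 1.35, SE 0.08, adjusted p = 4.01e-09). All 4 genes tested were called higher, where 28.5% of all genes were. Palbociclib, given at another dose and for longer, had log2 changes of 1.24, 0.63 and 0.32 for *PLAU*, *SERPINE2* and *PLAUR*; dose and time differ, so no comparison of the compounds was made.

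In SUM159, PF-06873600 was followed by a rise of both activators, the receptor and *SERPINE2*, of which *SERPINE2* had the largest fold, and *SERPINB2* counts were higher in the treated libraries. *PLAT* read 281 and 263 CPM untreated and 873 and 856 CPM treated, which was 3.18-fold higher (log2 1.67, SE 0.06, adjusted p = 8.26e-12). *PLAU* went from 78.04 and 75.03 CPM to 220.8 and 221.2 CPM, a 2.89-fold rise (log2 1.53, SE 0.05, adjusted p = 4.41e-12). The receptor *PLAUR* went from 35.5 and 33.3 CPM to 70.8 and 71.5 CPM, a 2.07-fold rise (log2 1.05, SE 0.06, adjusted p = 1.64e-09). The ranges of treated and untreated libraries were far apart for each of these.

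Among the inhibitors, *SERPINE2* climbed from 84.1 and 75.8 CPM to 644 and 631 CPM in SUM159, a 7.97-fold rise (log2 2.995, SE 0.07, adjusted p = 3.07e-14). *SERPINB2* was counted 5 and 4 times without the drug and 96 and 135 times with it, or 0.302 and 0.251 CPM against 5.61 and 6.38 CPM. The treated and untreated libraries did not overlap, and the ratio of the mean CPM was 21.7. The gene passed the filter on low counts only through the treated libraries, so it had to differ and its p-value is not given as support. In SUM159 38.1% of all genes tested were called higher, as were *PLAU*, *PLAT*, *PLAUR* and *SERPINE2*, and 4.60% of all genes had a larger log2 change than *SERPINE2* and 19.0% than *PLAUR*.

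**Figure D3:**
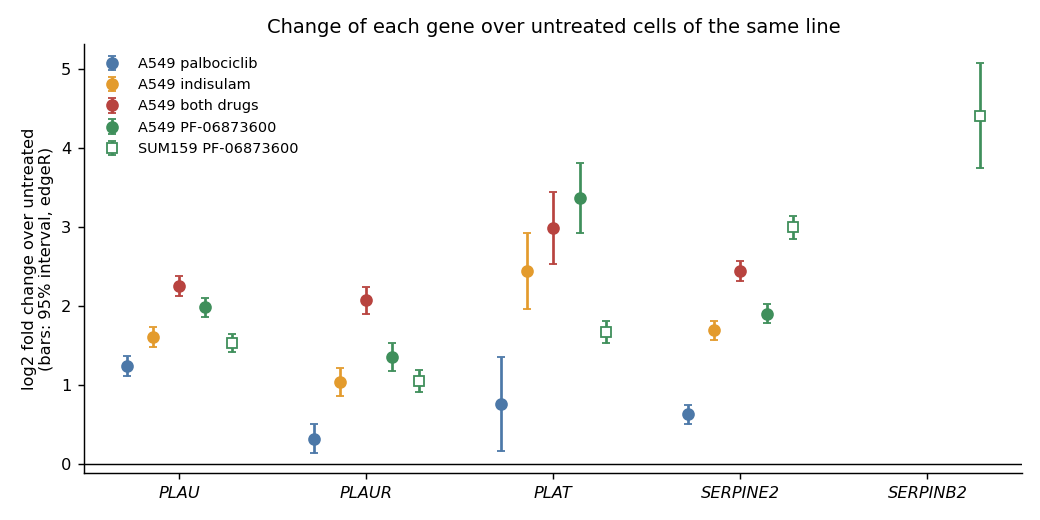
Log2 fold change over untreated cells of the same line (vertical axis) for each gene and treatment, with 95% intervals from edgeR; filled circles are A549 and open squares SUM159. *SERPINE2* changed more with PF-06873600 in SUM159 (2.995) than in A549 (1.90) and *PLAT* less (1.67 against 3.37), and *SERPINB2*, with few untreated counts, passed the filter only in SUM159 and only through its treated libraries.

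The untreated lines differed most in *PLAT*. It averaged 1.86 CPM ± 0.835 (SD, n = 2) in A549 and 272 CPM ± 12.9 (SD, n = 2) in SUM159, 146-fold higher (log2 7.19, SE 0.13, adjusted p = 1.25e-19, over 17279 genes). *PLAUR* was also higher in SUM159, by 0.69 on the log2 scale (SE 0.08, adjusted p = 1.95e-07), whereas *PLAU* and *SERPINE2* were lower, with log2 differences of −0.76 (SE 0.06, adjusted p = 4.84e-10) and −0.74 (SE 0.06, adjusted p = 1.64e-09). Between the lines 41.9% of all genes were called higher and 36.8% lower in SUM159. *SERPINB2* was at or under the floor in A549, so no fold is given.

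On the log2 scale the response to PF-06873600, at 1 dose and 1 time in both lines, was larger in SUM159 for *SERPINE2* and larger in A549 for *PLAU* and *PLAT*. For *PLAT* it started from 36 and 19 counts in untreated A549. In mean CPM *PLAT* rose more in SUM159, from 272 to 865, than in A549, from 1.86 to 19.2. The difference of the log2 changes, SUM159 less A549, was 1.09 for *SERPINE2* (SE 0.08, adjusted p = 2.16e-09), −0.45 for *PLAU* (SE 0.08, adjusted p = 8.28e-05) and −1.70 for *PLAT* (SE 0.21, adjusted p = 9.44e-07). After treatment *PLAT* was still 45.1 times as abundant in SUM159 as in A549. For *PLAUR* the difference was −0.30 (SE 0.11, adjusted p = 0.0202), and it did not pass with TMM factors, without a filter on low counts, or with DESeq2 (adjusted p = 0.0639, 0.0568 and 0.144), nor without the second untreated A549 library (0.0518), the second treated A549 library (0.0687), the first untreated SUM159 library (0.0880) or the first treated SUM159 library (0.0530). In this test 25.8% of all genes were called above and 27.2% below 0.

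Over all 7 groups, *PLAU* levels ran, from high to low, from the combination through PF-06873600, indisulam and palbociclib in A549 to treated SUM159, untreated A549 and untreated SUM159. *SERPINE2* had the same order save that treated SUM159 stood second. *PLAUR* ran from the combination to treated SUM159, then A549 with PF-06873600 and with indisulam, untreated SUM159, A549 with palbociclib and untreated A549. For these 3 genes no neighbours in the order overlapped. The share of all genes without such overlap was not computed, here or for the ranges compared above. *PLAT* was highest in both SUM159 groups, and its lowest neighbours, A549 with palbociclib and untreated, met at 2.45 CPM. *SERPINB2* stood at 5.998 CPM ± 0.545 (SD, n = 2) in treated SUM159 and 0.276 CPM ± 0.0361 (SD, n = 2) in untreated SUM159, and its 5 A549 groups overlapped. With 2 libraries against 2, a two-sided exact permutation test cannot go below p = 0.333, so the groups cannot be separated by that test.

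To set the genes beside each other, levels were divided by the length of the canonical transcript, in CPM per kilobase. In untreated A549 *SERPINE2* stood at 60.2, *PLAU* at 55.4, *PLAUR* at 15.6 and *PLAT* at 0.606 CPM per kilobase, and with both drugs at 327, 264, 65.4 and 4.81. Urokinase was thus the main activator RNA in A549. In SUM159 it was *PLAT*: untreated cells had 88.8 CPM per kilobase of *PLAT*, 35.9 of *SERPINE2*, 32.7 of *PLAU* and 25.2 of *PLAUR*, and treated cells 282, 286, 94.3 and 52.0. The order of *SERPINE2* against the activators depends on the transcript length used, since with all annotated exons joined the ratio of *PLAU* to *SERPINE2* was 2.94 in untreated A549 instead of 0.921.

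The ratio of *PLAU* to *SERPINE2*, activator to inhibitor, can be followed between groups, because the lengths are the same in each. Per kilobase it was 0.921 ± 0.0174 (SD, n = 2) in untreated A549, 1.41 ± 0.00346 with palbociclib, 0.872 ± 0.0778 with indisulam, 0.808 ± 0.0338 with both drugs and 0.972 ± 0.00534 with PF-06873600. The palbociclib libraries stood highest, those with both drugs lay below the untreated ones, and those with indisulam overlapped them. In SUM159 the ratio fell from 0.911 ± 0.0415 to 0.329 ± 0.00546 with PF-06873600, the lowest of the 7 groups. The ratio of *PLAU* to its receptor went from 3.56 ± 0.247 in untreated A549 to 6.74 ± 0.179 with palbociclib and stood at 4.05 ± 0.220 with both drugs. It was 5.29 ± 0.172 with indisulam and 5.51 ± 0.00856 with PF-06873600, and in SUM159 it went from 1.30 ± 0.0227 to 1.81 ± 0.00926.

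Other genes were taken from 6 lists with 41 genes. Of these, 9 serpins beside *SERPINB2* on chromosome 18 were listed for their position, and the rest for a part in plasmin biology. The gene of plasminogen itself, *PLG*, held at most 1 count in any library, so the substrate of these activators was not detectable as RNA at this depth. Of 31 genes tested in A549, 11 rose and 0 fell with palbociclib, 15 rose and 4 fell with indisulam, 20 rose and 6 fell with both drugs, and 23 rose and 3 fell with PF-06873600. The median log2 change of the tested list genes was 0.15, 0.34, 0.63 and 0.68 in that order, beside −0.01, 0.08, 0.05 and −0.01 over all genes. Of all genes, 8.30%, 28.0%, 35.1% and 28.5% were called higher and 7.40%, 17.5%, 30.0% and 27.8% lower. In SUM159 20 of 27 rose and 3 fell, with a median of 1.35 beside 0.02. There 38.1% of all genes were called higher and 35.6% lower. The serpins listed for their position are part of these counts and medians. Of 5 of them tested in A549, 3, 4, 4 and 5 rose, in the order above, and 0 fell. In SUM159 4 of 5 rose and 1 fell. These counts and medians include genes with at most 9 counts in each untreated library, which passed the filter only through treated libraries. They were *ST14*, *VTN* and *SERPING1* in SUM159, and *ITGB3*, *SERPINA5*, *SERPING1*, *ST14*, *SERPINB3*, *SERPINB4* and *SERPINB7* in A549. Their calls are not given as support. With palbociclib the count of 11 fell to 6 when only the 4 libraries compared were fitted, to 6 without its first library and to 7 without its second.

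**Figure D4:**
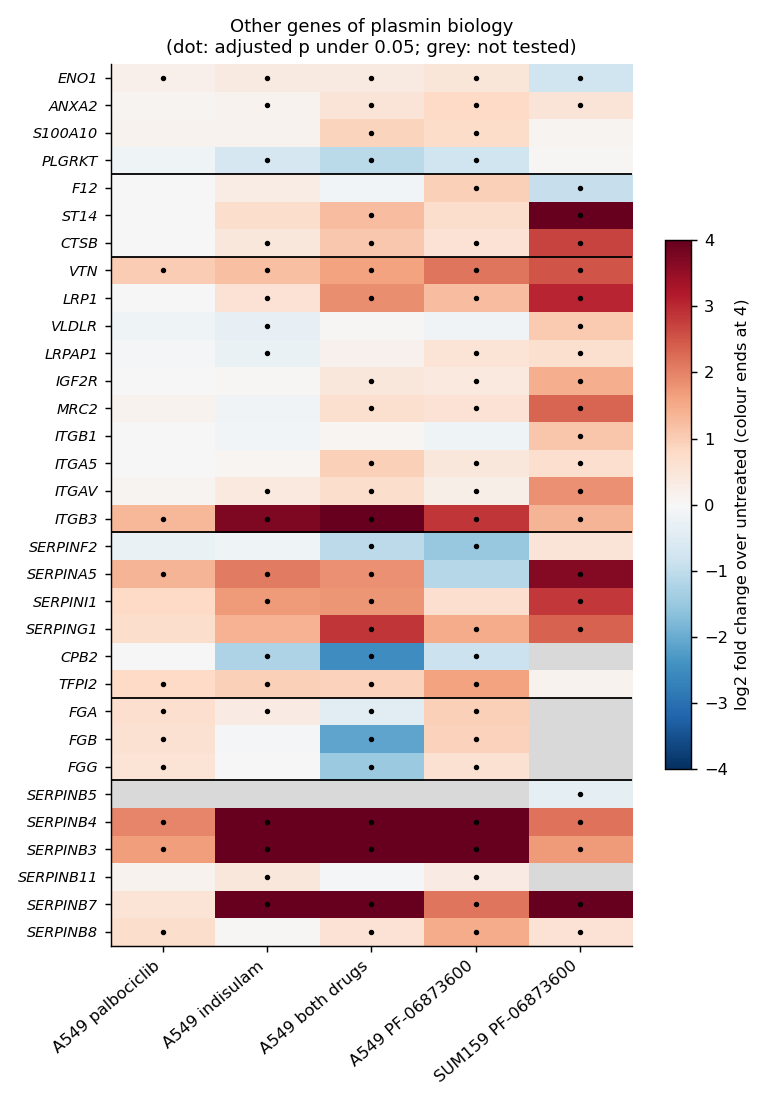
Log2 fold change over untreated cells of the same line (colour, ending at 4) for the list genes tested, in rows grouped by list, and 5 treatments in columns; a dot marks an adjusted p under 0.05 and grey a gene not tested in that line. *PLGRKT* and *CPB2* are blue (lower) in several A549 columns, and *FGA*, *FGB* and *FGG* are blue with both drugs and red (higher) with palbociclib and PF-06873600.

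Receptors that hold plasminogen at the surface changed unevenly. *ANXA2* and *S100A10*, which form the annexin A2 complex that binds plasminogen, had log2 changes of 0.52 and 0.90 with both drugs and 0.78 and 0.73 with PF-06873600 in A549, all past the test. In SUM159 *ANXA2* rose by 0.50 and *S100A10* had a value of 0.11 (adjusted p = 0.130). *PLGRKT*, a membrane receptor for plasminogen, fell by 0.68 with indisulam, by 1.08 with both drugs and by 0.79 with PF-06873600 in A549. *ENO1*, a glycolytic enzyme that also binds plasminogen, rose by 0.48 with PF-06873600 in A549 and fell by 0.80 in SUM159.

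Of the 10 listed genes for partners and clearance receptors of the urokinase receptor, 10 rose in SUM159, where 38.1% of all genes were called higher. Of these, *VTN* held 5 and 2 counts untreated and 21 and 27 treated. It passed the filter on low counts only through the treated libraries, so it had to differ. *LRP1*, which takes up complexes of activator and serpin, rose in A549 by 1.85 on the log2 scale with both drugs (SE 0.11, adjusted p = 1.59e-09) and in SUM159 by 3.05 (SE 0.11, adjusted p = 4.42e-12). In untreated SUM159 it held 34.7 and 49.9 CPM and in treated cells 337 and 363 CPM. *MRC2*, a collagen receptor that associates with the urokinase receptor, rose by 2.31 and *IGF2R*, which can bind it, by 1.47 in SUM159. With both drugs in A549, where 35.1% of all genes were called higher, 7 of the 10 rose. Among them, the integrin chain *ITGB3* went from 7 and 8 counts to 223 and 223 counts (log2 4.88). It passed the filter on low counts only through treated libraries, so its p-value is not given as support. *VTN*, which encodes vitronectin, a ligand of the urokinase receptor, rose with each A549 treatment, by 1.03 with palbociclib, 1.19 with indisulam, 1.62 with both and 2.15 with PF-06873600.

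Of 6 proteases able to activate urokinase or plasminogen, *KLKB1*, *HPN* and *HGFAC* did not pass the filter on low counts in either line. *CTSB*, the lysosomal protease cathepsin B, was the abundant one. It read 465 and 470 CPM in untreated A549 and 1000.4 and 979.6 CPM with both drugs (log2 1.08, SE 0.05, adjusted p = 1.16e-10). In SUM159 it went from 459 and 428 CPM to 2881 and 2848 CPM (log2 2.69, SE 0.08, adjusted p = 4.33e-13). *ST14*, which encodes matriptase, had 1 and 0 counts in untreated SUM159 and 14 and 31 in treated cells.

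The other inhibitors and the fibrin chains moved in both directions. *SERPINF2*, whose product antiplasmin inhibits plasmin, fell by 1.04 with both drugs and by 1.51 with PF-06873600 in A549, and *CPB2*, a carboxypeptidase that slows fibrin breakdown, fell by 1.23 with indisulam, by 2.48 with both drugs and by 0.87 with PF-06873600. *TFPI2*, an inhibitor of plasmin and other proteases, rose with all 4 A549 treatments, between 0.79 and 1.61. In SUM159 *SERPINA5*, which encodes protein C inhibitor and also inhibits urokinase, rose by 3.67, and *SERPINI1*, which encodes the *PLAT* inhibitor neuroserpin, by 2.84. The fibrinogen genes *FGA*, *FGB* and *FGG* rose with palbociclib by 0.69, 0.60 and 0.56 and with PF-06873600 by 0.94, 0.91 and 0.61, and fell with both drugs by 0.45, 2.12 and 1.47. Their interactions were −1.48, −2.66 and −2.01, each past the test.

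Several serpins beside *SERPINB2* on chromosome 18 rose in A549, where *SERPINB2* itself stayed at or under the floor. *SERPINB7* held 2 and 4 counts untreated, 47 and 61 with indisulam, 186 and 227 with both drugs and 13 and 14 with PF-06873600. *SERPINB4* went from 9 and 5 counts to 151 and 142 with both drugs and 124 and 169 with PF-06873600, and *SERPINB3* from 1 and 6 to 65 and 69 and to 77 and 90, although these genes are near-identical copies and their counts are uncertain. In SUM159 *SERPINB7* rose from 15 and 20 to 313 and 452 counts (log2 4.20, SE 0.19, adjusted p = 4.63e-11). *SERPINB5*, the gene of maspin, was the exception there, with a mean of 96.0 CPM untreated and 73.8 CPM treated (log2 −0.38, SE 0.06, adjusted p = 3.49e-05).

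Genes with the most similar profile were sought by Pearson's r of log2 CPM, as a description without a test, since libraries of a group share their treatment. Over the 10 A549 libraries and 10376 genes whose highest group mean was at least 10 CPM, *PLAU* was most like *IKBIP* (r = 0.995), *ABTB3* and *TNS4*, *PLAUR* most like *FSTL3* (r = 0.998), *FBN1* and *SUSD4*, *PLAT* most like *LRFN4* (r = 0.995), *HAS3* and *PTPRS*, and *SERPINE2* most like *ANKRD1* (r = 0.997), *CXCL6* and *DENND2B*. Among themselves the 4 genes had r from 0.892 (*PLAUR* with *PLAT*) to 0.976 (*PLAUR* with *SERPINE2*). Over all 14 libraries the closest genes were *OLFML3* for *PLAU* (r = 0.985), *CHST11* for *PLAUR* (r = 0.994), *TLR4* for *PLAT* (r = 0.990), *GBP2* for *SERPINE2* (r = 0.989) and ENSG00000250771 for *SERPINB2* (r = 0.983). The last value rests mostly on the treated SUM159 libraries. *SERPINB2* was at or under the floor in A549 and held 5 and 4 counts in untreated SUM159.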

How the data were processed

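The deposited files held raw read counts per gene, 1 file per library, which the authors made without normalization; the submitters' processing notes name HISAT2 2.2.1, HTSeq and GRCh38, and the annotation release is not given in the sources used here. RNA had been enriched for mRNA with a stranded kit. Ensembl IDs were paired with GENCODE 44 symbols (60370 of 60683 matched). CPM were counts scaled to 1000000 counts on genes; reads assigned to more than 1 gene were 3.55 to 4.21% of all reads on 1 or more genes and were left out.

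Groups came from the labels. Counts were tested with edgeR 4.0.16 in R 4.3.3 (quasi-likelihood F test, library size scaling, filterByExpr, Benjamini-Hochberg over all genes tested, threshold 0.05), with all 10 A549 libraries, the 4 SUM159 libraries (15055 genes) or, between lines, all 14 in 1 fit; the procedure was tested on simulated data. Alternatives were TMM factors, DESeq2 1.42.0, other filters, fewer groups, each library left out, and the replicate number as a block. Likeness of profiles was taken on log2 CPM, a prior count of 2 being added. All 5 genes were described in every group, and list genes by function, or by position for the serpins beside *SERPINB2*. Members and lists were chosen with earlier results of these data known.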

Additional observations from a re-analysis of the deposited data

Results flagged for a closer look

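The change of 4 genes with PF-06873600 differed between the lines, tested as an interaction of line and treatment in edgeR over all 14 libraries. The difference of log2 changes, SUM159 less A549, was −0.45 for *PLAU*, −0.30 for *PLAUR*, −1.70 for *PLAT* and 1.09 for *SERPINE2*. In both lines each of these genes was higher in 2 of 2 treated libraries than in any untreated one. How many of all genes were so separated was not computed. The value for *PLAT* rests on 36 and 19 counts in untreated A549, and that for *PLAUR* passed the threshold only with some settings.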

How the results depend on the processing

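For the 41 reported differences of the 5 genes, 661 alternative values were computed, of which 642 kept direction and side of the threshold. These include 9 alternatives for *SERPINB2* in SUM159, which had to differ, so they are not given as support. For palbociclib against untreated A549, *PLAUR* had log2 changes of 0.32 with DESeq2 (adjusted p = 0.0597) and 0.32 with only the compared groups (adjusted p = 0.118), and 0.28 to 0.35 when 1 library was left out; *PLAT* passed without a filter on low counts (log2 0.76, adjusted p = 0.0324) and ran from 0.36 to 1.30 when 1 library was left out. List genes called there numbered 6 with only the compared groups, and with 1 library left out 6 to 10 rose and 0 to 1 fell. *PLAT* in the combination against indisulam ran from 0.52 to 0.59, and its interaction from −0.75 to 0.19, turning to 0.19 and 0.15 without the second untreated or the second palbociclib library. The *PLAUR* difference between lines was −0.25 with TMM factors, −0.30 without a filter, −0.26 with DESeq2, and −0.35 to −0.26 with 1 library left out. A lone library left in a group was assumed to vary like the other groups. The cause of these shifts was not tested. Of 171 called values of list genes, 2443 alternatives stayed called, 117 did not pass and 0 reversed. List genes that passed the filter only through treated libraries are among them, and for those the tally is not given as support.

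Replicate numbers gave only 2 pairs a comparison, with correlations of deviations between −0.274 and 0.230, so they are taken as numbers only. The fit with the replicate block changed no call of the 5 genes (log2 change of *PLAU* with palbociclib 1.24 with the block). Crossed numbers, tried for palbociclib (−0.274) and SUM159 (−0.218) after seeing the data, changed none either, with 11 list genes called higher for palbociclib, against 10 with the block as numbered. Depth limits *PLAT* in A549 and *SERPINB2* throughout.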
